A study of Mus musculus with 24 samples.

Results

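The genes described here are 39 genes of the germline and of meiosis, the cell division that makes gametes, chosen by name as genes that work in germ cells and are known to be silenced by DNA methylation in other cells. They were followed across the 9 RNA-seq libraries of the series, 3 each of mouse embryonic stem cells (ESCs), neural progenitors (NPs) and ESCs lacking all TET enzymes (TET TKO ESCs), in count tables that hold 51912 genes, and all 39 were found there by symbol. The ESCs were wild-type TC-1 cells of a C57BL/6 X 129S5 background, grown with leukaemia inhibitory factor on gelatin. The NPs were obtained from wild-type ESCs of the same background, left to form cellular aggregates, given 5 µM retinoic acid for the last 4 days and collected at day 8. The TET TKO ESCs carried a triple knockout of TET1, TET2 and TET3 in a C57BL/6 X 129/sv background, so that the knockout cannot be told apart from the cell line and its strain. DNA methylation of the genes' own promoters was not measured in the tables used here, and no result below says anything about it.

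Germline genes are a classic set under control by DNA methylation: many have promoters rich in CpG, the dinucleotide at which mammalian DNA is methylated, and these promoters are methylated around implantation and stay so in somatic cells. In ESCs, which resemble cells from before this step, several of them are transcribed at a low level although no meiosis takes place. A repressive complex, PRC1.6, holds them down through the factors E2F6 and MGA with MAX, which recognise an E2F site and an E-box, while TET enzymes oxidise methylated cytosine and so counter methylation.

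The libraries held 20570050 to 23976914 counts in ESCs, 20519702 to 22132988 in NPs and 80704741 to 93210102 in TET TKO ESCs, so that a level near 0 was measured more precisely in the last group. Levels are given as RPKM (reads scaled by exon length and library size), computed from the counts with TMM-scaled library sizes (a scaling that sets most genes equal between libraries). Markers of pluripotent cells (6 genes, among them Pou5f1 and Nanog) summed to 1454 to 1512 RPKM in ESCs, 6.10 to 14.2 in NPs and 1033 to 1149 in TET TKO ESCs, and 6 markers of neural progenitors summed to 73.8 to 75.1, 166 to 341 and 31.9 to 79.9. In TET TKO ESCs, Tet1 (log2 change −2.28 against ESCs) and Tet2 (−2.94) were lower in every library but still had reads, and Tet3 was at 0.561, 0.617 and 0.474 RPKM against 0.746, 0.631 and 0.770 in ESCs. Counts over a whole gene check such a deletion only in part. The study's methods speak of biological replicates for RNA-seq, but nothing in the labels says whether the 3 libraries of a group came from separate cultures. The p-values then measure the spread between these libraries, which may be technical in part. In bulk RNA, fewer cells that express a gene and less RNA per cell cannot be told apart.

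Most of these genes shared promoters with many CpG. The rule did not use CpG content itself. Yet genes known to be silenced by DNA methylation are known for such promoters, so the choice of genes largely fixed this outcome. RefSeq promoter windows on GRCm38.p6, from 250 bases before to 50 bases after the start of transcription, were matched by symbol for 34 of the 39 genes. The others were Spo11, Piwil2, Tex15, Tdrd6 and Rnf17. The median window held 19.5 CpG, from 3 in Nanos3 to 48 in Tdrd5, against a median of 13 over 17491 protein-coding genes. At least 10 CpG were held by 31 of the 34 (91.2%), against 57.4% of protein-coding genes. Among windows with at least 10 CpG, the median was lower in these genes, at 20 CpG against 23 in protein-coding genes. To show what such promoters look like, the 250 bases before the start are given for Hormad1, which had the largest fall in NPs, for Dazl and Ddx4, markers of the germline, and for Stra8 and Tdrkh, which were higher in NPs, each 5′ to 3′ on the gene's strand with every CpG in capitals.
Hormad1: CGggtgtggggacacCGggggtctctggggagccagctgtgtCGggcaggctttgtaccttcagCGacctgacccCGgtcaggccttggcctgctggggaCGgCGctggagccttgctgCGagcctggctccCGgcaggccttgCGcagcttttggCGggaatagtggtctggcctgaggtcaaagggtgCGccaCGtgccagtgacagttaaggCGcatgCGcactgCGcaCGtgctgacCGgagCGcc
Dazl: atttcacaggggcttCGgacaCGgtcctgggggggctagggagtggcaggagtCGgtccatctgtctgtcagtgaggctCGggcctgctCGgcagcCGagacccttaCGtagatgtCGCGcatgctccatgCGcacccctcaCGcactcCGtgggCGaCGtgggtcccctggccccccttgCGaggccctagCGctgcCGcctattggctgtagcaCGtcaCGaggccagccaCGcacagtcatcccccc
Ddx4: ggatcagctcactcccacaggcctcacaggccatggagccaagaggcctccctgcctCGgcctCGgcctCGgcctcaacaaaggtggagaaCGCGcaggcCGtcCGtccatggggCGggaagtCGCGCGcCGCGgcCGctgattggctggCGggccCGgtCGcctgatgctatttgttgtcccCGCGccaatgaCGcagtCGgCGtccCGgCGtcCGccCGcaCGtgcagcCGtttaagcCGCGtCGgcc
Stra8: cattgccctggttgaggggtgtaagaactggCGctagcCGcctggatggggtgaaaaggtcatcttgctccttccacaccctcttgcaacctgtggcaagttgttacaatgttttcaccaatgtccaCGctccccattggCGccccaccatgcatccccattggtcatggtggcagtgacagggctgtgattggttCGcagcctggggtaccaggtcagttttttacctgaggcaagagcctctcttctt
Tdrkh: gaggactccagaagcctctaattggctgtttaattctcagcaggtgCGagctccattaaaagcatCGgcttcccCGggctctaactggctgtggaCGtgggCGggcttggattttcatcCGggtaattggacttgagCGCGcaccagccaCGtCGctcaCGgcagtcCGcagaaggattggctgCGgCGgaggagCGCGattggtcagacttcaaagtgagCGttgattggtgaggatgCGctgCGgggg
These stretches are chr3:95559427-95559676 (plus strand) for Hormad1, chr17:50293621-50293870 (minus) for Dazl, chr13:112652311-112652560 (minus) for Ddx4, chr6:34920698-34920947 (plus) for Stra8 and chr3:94412994-94413243 (plus) for Tdrkh. They hold 19, 20, 31, 5 and 19 CpG. The stretch of Stra8 thus stands apart as poor in CpG, though its full 300-base window holds 10 and is among the 31 with at least 10. The stretch of Tdrkh, which rose in NPs, holds as many CpG as the one of Hormad1, which fell. The transcription start of the Stra8 window lies 785 bases inside the gene as the count tables draw it, and 23 of the 34 windows have theirs within 100 bases of the start in those tables. Those of Msh4, Meioc, Tex101, Nanos3, Mei1 and Piwil1 lie 1247 to 33722 bases inside. These windows, with the lowest CpG count (Nanos3) among them, may not be the promoters of the transcripts counted. Meioc and Piwil1 also enter the motif counts below.

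**Figure D1:**
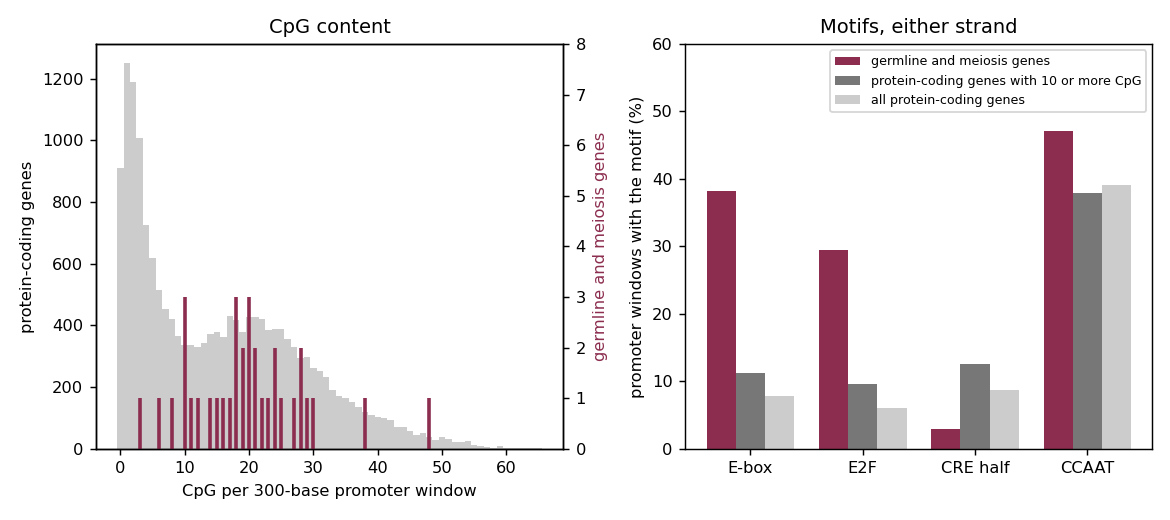
Left, number of CpG per 300-base RefSeq promoter window (x axis) for protein-coding genes (grey bars, left axis, number of genes) and for the 34 germline and meiosis genes with a window (red lines, right axis, number of genes). Right, percentage of windows with each motif on either strand in the 34 genes, in protein-coding genes with at least 10 CpG and in all protein-coding genes. The 34 genes lie mostly between 10 and 30 CpG and hold the E-box and the E2F motif more often than either reference.

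Short motifs of known factors were searched on both strands, counting overlapping matches. CACGTG, the E-box, occurred in 13 of the 34 windows (38.2%), against 7.89% of all protein-coding genes and 11.2% of those with at least 10 CpG. GCGGGAA, a form of the E2F site, occurred in 10 windows (29.4%), against 6.02% and 9.64%. CACGTG reads the same on both strands, and both motifs contain a CpG, so that windows rich in CpG hold them more often. Windows of Sycp3, Hormad1, Stag3, Ddx4 and Slc25a31 held both. ACGTCA, part of the cAMP response element, occurred in 1 window (2.94%, that of Dazl), against 8.74% and 12.6%, and CCAAT, the site of NFY, in 16 (47.1%), against 39.1% and 37.9%. The plot of CpG content and motifs shows these shares side by side. Genes with and without an E-box moved by similar amounts in NPs, with a median log2 change of −2.79 over 13 genes and of −3.08 over 21. In TET TKO ESCs the medians were −0.01 and 0.36. A match of letters is a description of the window and shows no binding.

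In ESCs, 25 of the 39 genes had a mean of at least 1 RPKM, against 23.9% of all genes in the tables. That reference also holds noncoding genes, so the sets are unlike. The median of the means of the 39 genes was 2.40 RPKM. The highest were Syce2 at 23.8 ± 2.499 RPKM (SD, n = 3 libraries) and Rnf17 at 23.0 ± 3.04, which did not differ beyond their spread. Syce1 (16.8 ± 1.83), Tex14 (14.7 ± 3.90), Stag3 (14.4 ± 2.01) and Dazl (13.6 ± 1.16) followed, each within the spread of the next, and then Meioc, Mael, Smc1b and Rec8 at 9.64 to 10.2. At the other end, Spo11, the enzyme that makes the double-strand breaks of meiosis, had 1 count over the 3 libraries, and Tdrd6 had 5 to 8 per library. In NPs 11 of the 39 had a mean of at least 1 RPKM and in TET TKO ESCs 26, against 23.9% and 23.7% of all genes in the tables. The medians were 0.423 and 3.65. The summed levels of the ESC libraries over the 39 genes were close, at 204, 199.8 and 220.0 RPKM, but single genes such as Tex14 spread more. Over all genes, ESC replicates 1 and 2 were nearer to each other (chi-square of counts per gene 2.37) than to replicate 3 (14 and 19.7). In NPs the sums were 62.6, 229.6 and 76.2, where replicate 2 owed its sum to Stra8 and Rec8, described below. In TET TKO ESCs they were 244.7, 243.8 and 282.2.

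**Figure D2:**
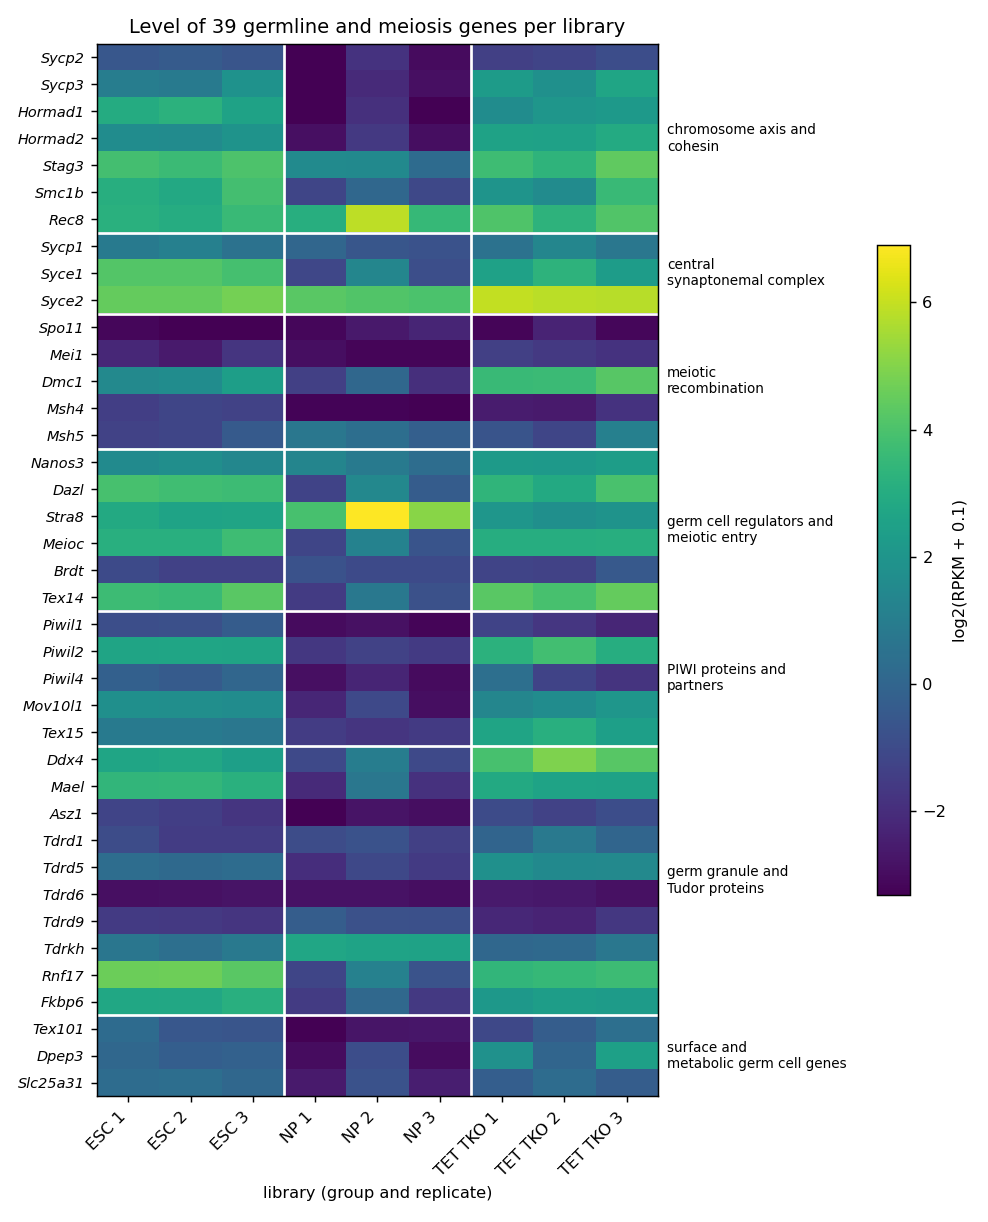
Level of each of the 39 genes (rows, grouped by role) in each of the 9 libraries (columns), as log2(RPKM + 0.1) on the colour scale. Most rows are dark in the NP columns, where Rec8, Stra8, Tdrkh and Syce2 stay bright, and NP replicate 2 is brighter than NP replicates 1 and 3 in many rows.

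The first comparison asks how these genes differ between ESCs and the NPs derived from ESCs. Most of the genes were lower in NPs, with a median log2 change of −2.97 over all 39 genes against −0.05 over all 31654 genes with a count, with 31 genes below 0 and 8 above. Every NP library lay below every ESC library for 30 genes and above for 5 (Msh5, Stra8, Brdt, Tdrd9 and Tdrkh), while 4 overlapped (Rec8, Spo11, Tdrd1 and Tdrd6). Among the 15197 genes tested, such separation was found below for 35.6% and above for 36.3%. These shares cover genes past the filter on low values described below, which 11 of the 39 did not pass, so the sets are unlike. The test was edgeR's quasi-likelihood F test, and called genes had an adjusted p (Benjamini-Hochberg) under 0.001 together with a change of 3-fold or more. In a fit without a filter on low values, which holds all 39, 25 were called lower and 2 higher, against 8.18% and 8.51% of all genes. With the study's filter of at least 1 RPKM in a library, 28 genes were tested. Of these, 14 passed it only through ESCs, so that the filter itself favoured a fall. In this fit 14 were called lower and 1 higher, against 9.98% and 12.4% of genes tested. Of the genes called lower, only Stag3, Syce1, Tex14 and Rnf17 reached 1 RPKM in an NP library too. At an adjusted p under 0.05 alone the counts were 23 and 3, against 31.2% and 32.9%. Adjusted p-values below are those of the filtered fit, and values are given for replicates 1, 2 and 3 in this order. Unless named otherwise, the counts per role come from this fit too. They include genes that passed its filter only through ESCs, and the shares over all genes are those given above.

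The next genes are those of the chromosome axis, the protein core along which meiotic chromosomes are organised, and of meiotic cohesin, the ring that holds sister chromatids. Of the 6 tested, 5 were called lower, against 9.98% of all genes tested. Hormad1, Hormad2, Sycp3 and Smc1b among them reached 1 RPKM only in ESCs, so that the filter itself favoured a fall. In the fit without a filter, 6 of 7 were called lower, against 8.18% of all genes. Hormad1 (ENSMUSG00000028109, chromosome 3, 95559677 to 95587671 on GRCm38), an axis protein that monitors pairing, had 7.61, 9.29 and 5.81 RPKM in ESCs and 0, 0.167 and 0 in NPs, where 7 counts in replicate 2 were all that was found (log2 change −6.95, SE 0.73, adjusted p = 6.34e-05). Its partner Hormad2 had 3.04, 2.96 and 3.75 against 0.0343, 0.226 and 0.0316 (log2 change −5.01, SE 0.58, adjusted p = 0.000116). Sycp3, the axis component whose antibody stain is used to stage meiosis, had 1.90, 1.74 and 3.57 against 0, 0.130 and 0.0341 (log2 change −5.30, SE 0.70, adjusted p = 0.000223). For all of these the NP libraries were at or near 0. As 52.2% of the exon length of Sycp3 overlaps Chpt1 on the other strand and reads were counted without strand, its reads cannot be told apart from those of Chpt1 there. The cohesin subunit Smc1b had 8.47, 7.09 and 14.3 in ESCs and 0.337, 0.968 and 0.363 in NPs (log2 change −4.16, SE 0.45, adjusted p = 7.98e-05). Stag3, another subunit, fell less, from 14.1, 12.5 and 16.5 to 2.83, 2.79 and 1.08 (log2 change −2.69, SE 0.33, adjusted p = 0.000153), and kept a clear level in every NP library. Rec8, the cleavable subunit of meiotic cohesin, went the other way in a single library. It had 8.98, 7.996 and 11.9 RPKM in ESCs and 8.30, 58.9 and 11.4 in NPs (log2 change 1.42, SE 0.65, adjusted p = 0.0865). NP replicates 1 and 3 lay within the ESC range, and without NP replicate 2 the log2 change was 0.03 (adjusted p = 0.923). Sycp2, which was not tested, had 74 to 88 counts in ESCs and 0, 27 and 3 in NPs.

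The central synaptonemal complex is the zipper between paired chromosomes, and its genes differed from each other. Syce1 fell from 17.9, 17.8 and 14.7 to 0.354, 2.45 and 0.443 RPKM (log2 change −3.94, SE 0.62, adjusted p = 0.000624). Sycp1, the transverse filament, had 1.69, 2.09 and 1.36 in ESCs and 0.924, 0.567 and 0.498 in NPs (log2 change −1.37, SE 0.32, adjusted p = 0.00544). Syce2 stayed highly expressed, with 22.4, 22.3 and 26.7 in ESCs and 19.199, 17.2 and 15.8 in NPs (log2 change −0.46, SE 0.14, adjusted p = 0.0185). For all of them every NP library lay below every ESC library, but only Syce1 passed both limits.

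Of the genes of meiotic recombination, Dmc1, the strand exchange enzyme of meiosis, had 2.72, 3.01 and 5.23 RPKM in ESCs and 0.278, 0.976 and 0.157 in NPs (log2 change −2.95, SE 0.60, adjusted p = 0.0026), short of the limit on p. Msh5, which stabilises recombination intermediates, lay higher in NPs, with 0.306, 0.340 and 0.640 against 1.56, 1.18 and 0.750 (log2 change 1.43, SE 0.39, adjusted p = 0.0111), also short of the limits. Its partner Msh4 had 40 to 51 counts in ESCs and 1, 1 and 0 in NPs, which gives no firm ratio. The members of this pair therefore stood on opposite sides of their ESC levels. Mei1 had 7 to 23 counts in ESCs and 1 to 3 in NPs, and Spo11 had 1, 6 and 10 counts in NPs.

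Among regulators of germ cells and of meiotic entry, 1 of the 5 genes tested, Tex14, was called lower and none higher. The shares over all genes tested were 9.98% and 12.4%. At an adjusted p under 0.05 alone, 3 were lower (Dazl, Meioc and Tex14) and 1 higher (Stra8), against 31.2% and 32.9%. Dazl (ENSMUSG00000010592, chromosome 17, 50279394 to 50293599 on GRCm38), an RNA-binding protein needed for germ cell development, had 14.9, 13.4 and 12.6 RPKM in ESCs and 0.319, 2.64 and 0.689 in NPs (log2 change −3.48, SE 0.61, adjusted p = 0.00116). Meioc, which keeps cells in the meiotic programme, had 8.71, 8.69 and 13.3 against 0.336, 2.19 and 0.533 (log2 change −3.33, SE 0.61, adjusted p = 0.00139). Tex14, a component of the bridges between germ cells, fell from 12.7, 12.2 and 19.19 to 0.243, 1.62 and 0.482 (log2 change −4.23, SE 0.58, adjusted p = 0.000296). In all of these NP replicate 2 was several times above the other NP libraries and still below every ESC library. Dazl and Meioc missed the limit on p with all libraries. Without NP replicate 2, the NP library in which both were highest, their adjusted p was 1.53e-05 and 1.98e-05. With any other library left out, it was 0.00175 to 0.00663 for Dazl and 0.00294 to 0.00738 for Meioc. Nanos3, which protects early germ cells from death, had 2.90, 3.22 and 2.55 against 2.39, 1.74 and 1.17 (log2 change −0.72, SE 0.33, adjusted p = 0.0901), a difference that did not pass the test. Brdt, the testis bromodomain protein, had 33 to 42 counts in ESCs and 46 to 54 in NPs.

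Stra8 (ENSMUSG00000029848, chromosome 6, 34920163 to 34939344 on GRCm38), the gatekeeper of meiotic entry, is named for its induction by retinoic acid. It had 7.24, 6.04 and 6.16 RPKM in ESCs and 15.3, 119 and 33.4 in NPs (log2 change 3.09, SE 0.66, adjusted p = 0.00323), a fold of 8.54. Each NP library was above each ESC library, but the NP libraries spread over almost an order of magnitude, and the gene missed the limit on p. Without NP replicate 2 the log2 change was 1.91 (adjusted p = 0.0011). The fit without a filter called it higher (adjusted p = 9.93e-08).

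**Figure D3:**
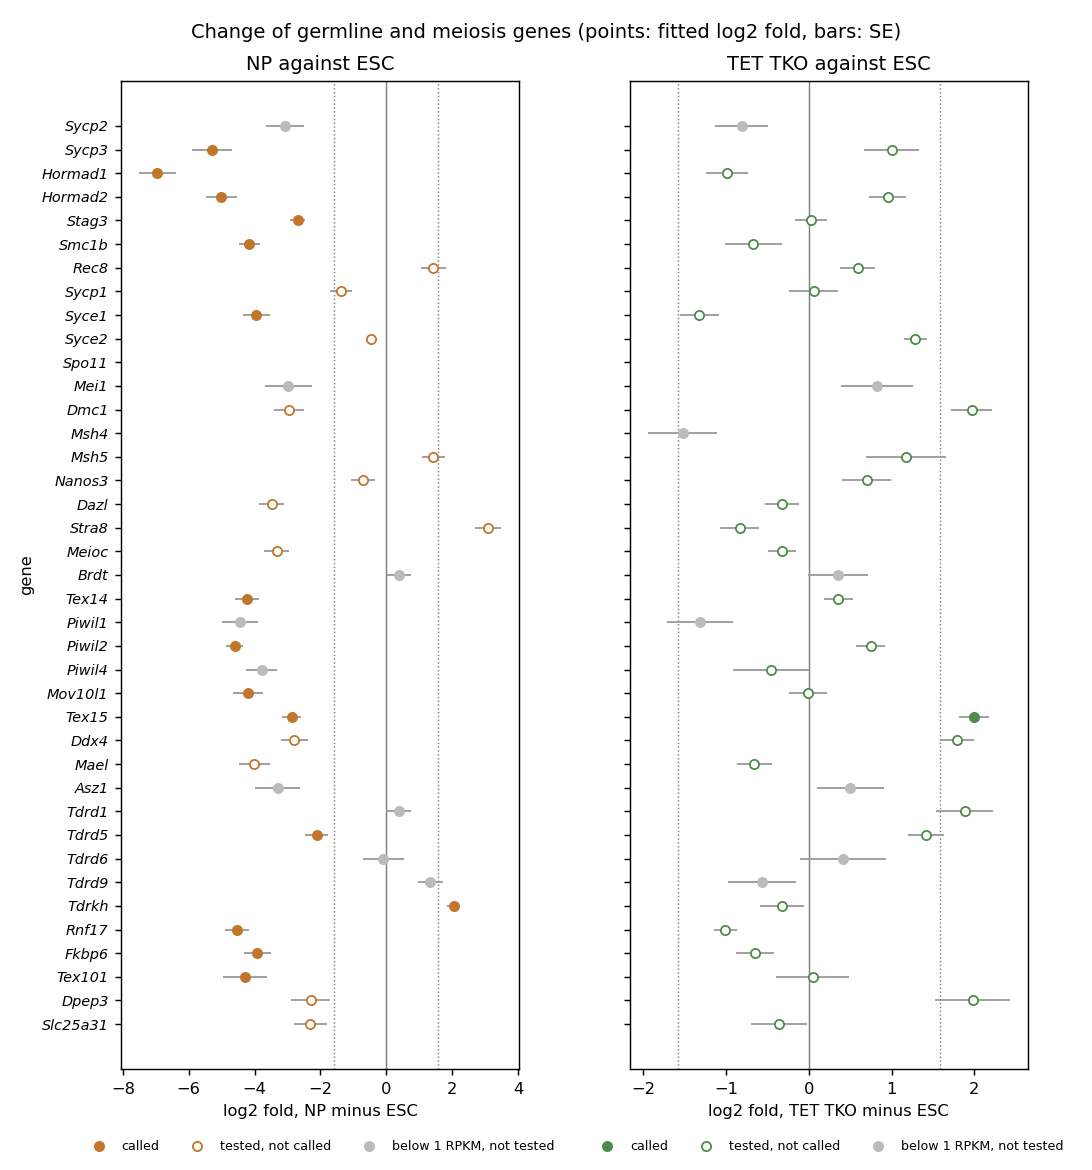
Fitted log2 fold (x axis) of each gene (y axis, in the order of roles) in NPs (left) and TET TKO ESCs (right) against ESCs, from the edgeR fits without a filter on low values, with bars for 1 SE and dotted lines at a fold of 3. Filled coloured points passed both limits in the filtered fit, open points did not, and grey points were not tested there; Spo11, and Msh4 in NPs, are left out because a group held 3 counts or fewer. In NPs most points lie left of the dotted line, and in TET TKO ESCs most lie between the lines.

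PIWI proteins bind piRNAs, the small RNAs that silence transposons in the germline. All 3 tested genes of this group were called lower in NPs, against 9.98% of all genes tested. Each of them reached 1 RPKM only in ESCs and passed the filter through ESCs, so that the filter itself favoured a fall. In the fit without a filter, 5 of 5 were called lower, against 8.18% of all genes. Piwil2 had 6.23, 6.31 and 6.16 RPKM in ESCs and 0.220, 0.310 and 0.237 in NPs (log2 change −4.60, SE 0.20, adjusted p = 9.08e-07), with little spread in either group. The helicase Mov10l1, which feeds piRNA precursors into processing, had 3.34, 3.23 and 3.03 against 0.112, 0.374 and 0.0309 (log2 change −4.20, SE 0.61, adjusted p = 0.000407). Tex15, a nuclear partner of PIWI silencing, had 1.74, 1.73 and 1.54 against 0.249, 0.201 and 0.233 (log2 change −2.87, SE 0.21, adjusted p = 1.04e-05). For Piwil2 and Tex15 the low level was alike in all 3 NP libraries, replicate 2 included. Of the genes not tested, Piwil1 had 41 to 73 counts in ESCs and 1 to 4 in NPs, and Piwil4 had 77 to 123 and 3 to 14.

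Germ granules are the perinuclear bodies where piRNAs are made, and many of their proteins carry Tudor domains. Here 3 of the 6 genes tested were called lower and 1 higher, against 9.98% and 12.4% of all genes tested. Fkbp6 and Tdrd5 among those lower reached 1 RPKM only in ESCs, so that the filter itself favoured a fall. In the fit without a filter, 6 of 10 were called lower and 1 higher, against 8.18% and 8.51% of all genes. Rnf17, a Tudor protein with the highest level of the group in ESCs, fell from 24.4, 25.2 and 19.5 to 0.337, 2.16 and 0.511 RPKM (log2 change −4.52, SE 0.60, adjusted p = 0.000227). Fkbp6, a co-chaperone of piRNA loading, had 6.65, 6.92 and 8.61 against 0.241, 0.986 and 0.222 (log2 change −3.92, SE 0.52, adjusted p = 0.000237). Tdrd5 had 1.16, 1.02 and 1.11 against 0.156, 0.368 and 0.236 (log2 change −2.12, SE 0.33, adjusted p = 0.000582). The called genes dropped in every NP library. Ddx4 (ENSMUSG00000021758, chromosome 13, 112598333 to 112652310 on GRCm38), the Vasa helicase and a standard marker of germ cells, had 6.32, 6.88 and 5.30 in ESCs and 0.379, 1.92 and 0.379 in NPs (log2 change −2.79, SE 0.58, adjusted p = 0.0029). Mael, a component of the nuage, had 10.4, 10.9 and 8.85 against 0.135, 1.54 and 0.174 (log2 change −4.01, SE 0.73, adjusted p = 0.00142). Both missed the limit on p with NP replicate 2, the NP library in which both were highest, and passed it without (adjusted p of 1.1e-05 and 4.42e-06). Tdrkh (ENSMUSG00000041912, chromosome 3, 94413273 to 94434668 on GRCm38), which tethers PIWI proteins to mitochondria, was the exception: it rose from 1.51, 1.22 and 1.67 to 6.48, 5.94 and 5.79 (log2 change 2.04, SE 0.17, adjusted p = 1.89e-05), 4.12-fold, with NP libraries that hardly differed. Since 36.7% of its exon length overlaps Oaz3 on the other strand, part of its reads cannot be assigned to it with certainty. Of those not tested, Tdrd9 had 26 to 27 counts in ESCs and 58 to 82 in NPs, Tdrd1 had 30 to 49 and 36 to 66, Tdrd6 had 5 to 8 and 5 to 7, and Asz1 had 14 to 20 and 0 to 3.

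The surface and metabolic genes were low from the start. Tex101, a surface protein of germ cells, had 1.11, 0.580 and 0.540 RPKM in ESCs and 0, 0.0497 and 0.0521 in NPs, from 21 to 39 and from 0 to 2 counts (log2 change −4.28, SE 0.70, adjusted p = 0.000746). Dpep3, a membrane dipeptidase of the testis, had 0.968, 0.728 and 0.790 against 0.0276, 0.436 and 0.0254 (log2 change −2.30, SE 0.79, adjusted p = 0.0315). Slc25a31, the ADP/ATP carrier of germ cells, had 1.13, 1.18 and 0.975 against 0.0662, 0.503 and 0.0811 (log2 change −2.31, SE 0.64, adjusted p = 0.0128). Only Tex101 of the 3 tested was called, against 9.98% of all genes tested called lower. It reached 1 RPKM only in ESCs, so that the filter itself favoured a fall. Its call did not hold without ESC replicate 2 or 3 or without any 1 of the NP libraries. There the adjusted p was 0.00197 to 0.00335 with log2 changes from −4.65 to −3.78. Without ESC replicate 1 it did not pass the filter and was not tested.

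NP replicate 2 stood apart for these genes. It was the highest NP library for 26 of the 39, and the median ratio to the mean of the other NP libraries was 2.81. The median gene was at 19.4% of its own ESC mean in this library, against 4.45% and 6.14% in NP replicates 1 and 3. The summed pluripotency markers were at 0.964%, 0.528% and 0.413% of their ESC mean in replicates 2, 1 and 3. Markers of neural progenitors summed to 166.0 RPKM in replicate 2 and to 341.1 and 257.8 in the others, and 7 markers of fibroblasts to 38.2 against 19.3 and 3.98, with 5, 3 and 1 of the 7 at 1 RPKM or more and none at 0 over the 3 NP libraries. The part of these differences in the levels of the germline genes was not tested. Without this library, 20 genes were called lower and 1 higher, against 10.5% and 12.3% of genes tested. Of the 14 genes called lower with all libraries, 13 were also called without it, and Dmc1, Dazl, Meioc, Ddx4, Mael, Dpep3 and Slc25a31 were added. Leaving out ESC replicate 3 or NP replicate 3 left 5 and 7 genes called lower.

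**Figure D4:**
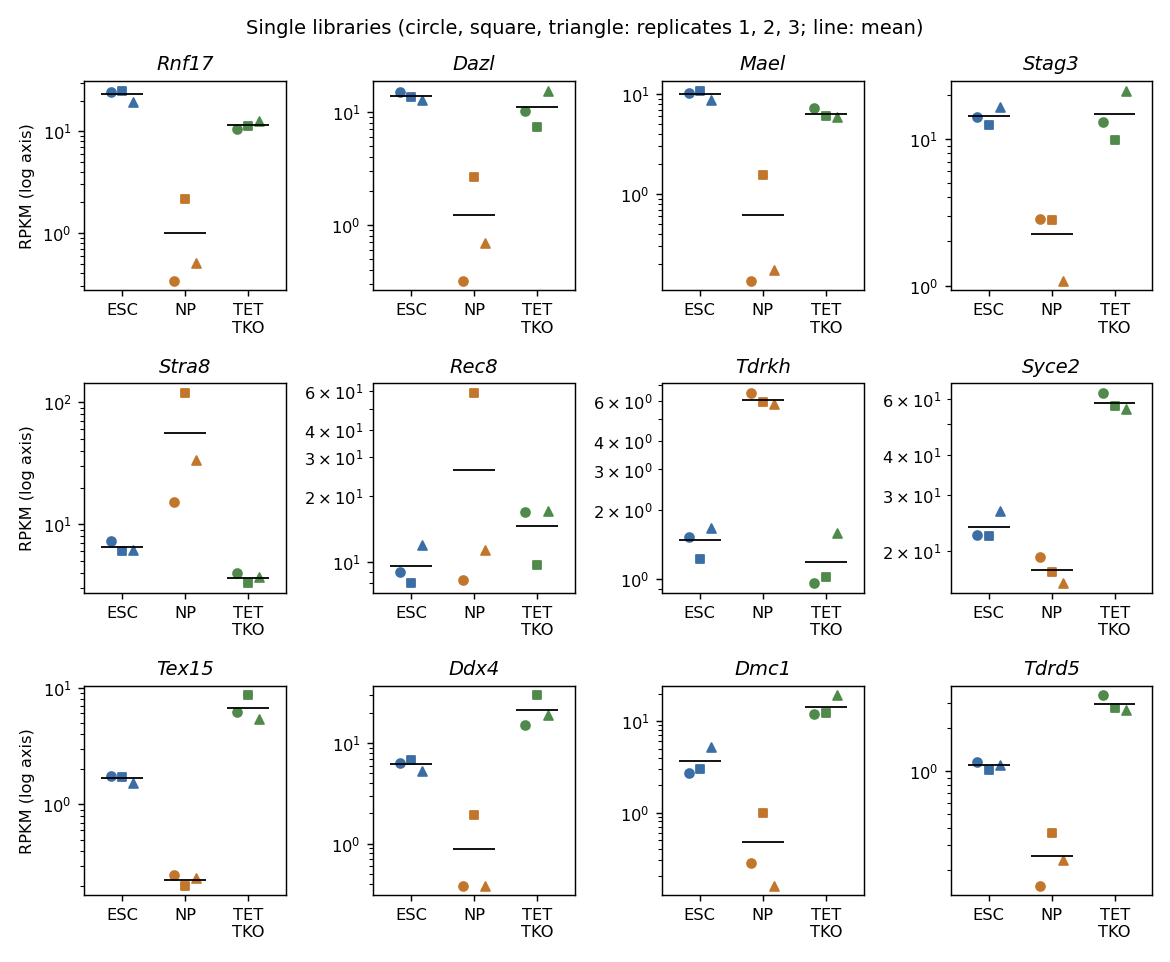
Level in each library (y axis, RPKM on a log axis) of 12 of the genes in ESCs, NPs and TET TKO ESCs (x axis), with replicates 1, 2 and 3 as circle, square and triangle and the mean as a line. NP replicate 2 lies above the other NP libraries for Rnf17, Dazl, Mael, Stra8, Rec8, Ddx4, Dmc1 and Tdrd5, but not for Tdrkh, Syce2 or Tex15.

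Markers of somatic cells of the gonad were checked because such cells accompany germ cells. Their sum was 21.0 to 27.4 RPKM in NPs and 3.20 to 3.69 in ESCs, with 3 of 5 at 1 RPKM or more in NPs. Of these, Sox9 (0.0455, 0.0886 and 0.0393 RPKM in ESCs and 22.7, 21.8 and 17.3 in NPs), which neural stem cells also express, and Foxl2 (0.0144, 0.0422 and 0.0250 and 2.26, 1.39 and 1.56), a factor of granulosa cells, were called higher, and Star (2.83, 3.24 and 2.70 and 2.09, 1.68 and 1.79), of steroidogenesis, was not called. Amh and Nr5a1, defining genes of Sertoli and steroidogenic cells, were at 0.336 RPKM or less in every NP library. The part of such cells in the levels of the germline genes was not tested. Markers of extraembryonic endoderm (4 genes) summed to 9.46 to 12.5 RPKM in NPs and 1.26 to 2.11 in ESCs, and those of trophoblast (4 genes) to 2.22 to 4.98 and 1.48 to 2.72. Genes of spermatids and oocytes, a list of 10 that follows meiosis, summed to 9.55 to 12.6 RPKM in ESCs and 0.629 to 1.15 in NPs. Nearly all of the sum in ESCs came from Zp3, an egg coat protein, which fell from 8.91, 11.003 and 11.6 to 0.106, 0.0311 and 0 (log2 change −7.77, SE 0.52, adjusted p = 6.36e-06). The protamine and transition protein genes Prm1, Prm2, Tnp1 and Tnp2 were at 0.4 RPKM or less in every ESC and NP library.

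The second comparison asks whether the genes differ in ESCs without TET enzymes. Here the module did not move as a whole, with a median log2 change of 0.06 over all 39 genes against 0.12 over all genes with a count. With library totals in place of TMM, the median over all genes tested moved from 0.12 to −0.05 and that of the members tested from 0.05 to −0.11, so small changes are to be read against this shift of 0.17. Every TET TKO library lay above every ESC library for 9 genes and below for 10, while 20 overlapped, against 32.2% and 19.6% of genes tested. These shares again cover genes past the filter only, which 9 of the 39 did not pass. Of 30 genes tested, 4 of which passed the filter only through TET TKO ESCs, 1 was called higher and none lower, against 1.1% and 1.21% of 13939 genes. At an unadjusted p under 0.05, edgeR gave 11 higher and 6 lower (29.7% and 16.8% of all genes tested) and DESeq2 12 and 6 (27.5% and 19%). With the limits used for calls, DESeq2 called 4 higher and none lower, against 3.2% and 3.4%. At an adjusted p under 0.05 alone 10 were higher and 6 lower, against 22.8% and 12.7%. The 10 include Tdrd1 and Dpep3, which passed the filter only through TET TKO ESCs. The fit without a filter called 4 of 39 higher (Dmc1, Tex15, Ddx4 and Tdrd1) and none lower, against 1.7% and 2.04%. Over all genes, calls were split into 153 higher and 169 lower, and into 99 and 191 with library totals. The ESC libraries are those of the first comparison, so the comparisons share their reference.

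Tex15 (ENSMUSG00000009628, chromosome 8, 33516738 to 33585582 on GRCm38) was the gene that passed both limits, of 10 that were higher at an adjusted p under 0.05. It had 1.74, 1.73 and 1.54 RPKM in ESCs and 6.22, 8.55 and 5.34 in TET TKO ESCs (log2 change 2.00, SE 0.19, adjusted p = 0.000402), 3.99-fold, and its lowest TET TKO library was well above its highest ESC library. With library totals the log2 change was 1.83. Its call did not hold without ESC replicate 1, 2 or 3 or TET TKO replicate 1, where the adjusted p was 0.00361, 0.00368, 0.00349 and 0.0019 with log2 changes from 1.93 to 2.05. The other PIWI partners moved less. Piwil2 had 9.49, 13.9 and 8.16 (log2 change 0.75, SE 0.19, adjusted p = 0.0213), above its ESC level in each library. Mov10l1 had 2.45, 3.05 and 4.08 (log2 change −0.01, SE 0.21, adjusted p = 0.976), which did not pass the test. Piwil4 spread from 1.22 in replicate 1 to 0.312 and 0.192 in replicates 2 and 3, and Piwil1 had 0.321, 0.209 and 0.112 against 0.442, 0.462 and 0.681 in ESCs.

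A group of genes exceeded a fold of 3 without passing the limit on p. Ddx4 had 15.2, 30.0 and 19.0 RPKM in TET TKO ESCs (log2 change 1.79, SE 0.25, adjusted p = 0.00187), against 5.30 to 6.88 in ESCs. Dmc1 had 12.0, 12.3 and 19.08 (log2 change 1.97, SE 0.31, adjusted p = 0.00283), against 2.72 to 5.23. Tdrd1, a germ granule scaffold, had 0.893, 1.66 and 0.907 (log2 change 1.88, SE 0.36, adjusted p = 0.00637), against 0.252 to 0.423. These were above ESCs in every library, with no overlap. Dpep3 had 3.46, 0.916 and 5.48 (log2 change 1.98, SE 0.60, adjusted p = 0.0361), where replicate 2 was within the ESC range. Tdrd1, through replicate 2 alone, and Dpep3 passed the filter only through TET TKO ESCs, so that the filter itself favoured a rise. Tdrd5 (3.41, 2.76 and 2.68, log2 change 1.41, SE 0.17, adjusted p = 0.00107) and Syce2 (62.7, 57.0 and 55.9, log2 change 1.29, SE 0.12, adjusted p = 0.000338) were above all ESC libraries by less than 3-fold, and Syce2 was the most highly expressed of the 39 genes there. Hormad2 had 5.91, 5.62 and 7.53 (log2 change 0.96, SE 0.19, adjusted p = 0.00796) and Nanos3 4.59, 4.55 and 5.01 (log2 change 0.70, SE 0.22, adjusted p = 0.0405).

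Other genes lay below their ESC levels, none by 3-fold. Rnf17 had 10.6, 11.3 and 12.6 RPKM in TET TKO ESCs (log2 change −1.01, SE 0.13, adjusted p = 0.00126) against 19.5 to 25.2 in ESCs. Syce1 had 5.74, 9.63 and 4.88 (log2 change −1.32, SE 0.26, adjusted p = 0.00763) against 14.7 to 17.9. Hormad1 had 3.03, 4.06 and 4.41 (log2 change −0.99, SE 0.24, adjusted p = 0.0158) against 5.81 to 9.29. The groups did not overlap for any of these. Stra8 had 3.99, 3.28 and 3.68 (log2 change −0.84, SE 0.18, adjusted p = 0.011), Mael 7.27, 6.00 and 5.87 (log2 change −0.66, SE 0.17, adjusted p = 0.0192) and Fkbp6 4.30, 5.11 and 4.83 (log2 change −0.65, SE 0.18, adjusted p = 0.0283). Thus members of 1 pathway stood on both sides, with Ddx4, Tdrd1 and Tdrd5 above and Rnf17, Mael and Fkbp6 below among germ granule genes.

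The remaining genes did not pass an adjusted p of 0.05 between TET TKO ESCs and ESCs. Dazl had 10.2, 7.32 and 15.4 RPKM (log2 change −0.32, SE 0.25, adjusted p = 0.354), a range that spans its ESC values. Meioc had 8.23, 8.27 and 8.28, Tex14 19.4, 14.9 and 22.5 and Sycp3 4.84, 3.45 and 6.32. Rec8 had 17.0, 9.71 and 17.2, Smc1b 3.80, 2.97 and 12.1 and Msh5 0.528, 0.335 and 2.07, the latter 2 with their highest value in replicate 3. Slc25a31 had 0.725, 1.14 and 0.708 and Tdrkh 0.952, 1.02 and 1.58. Stag3 (13.0, 9.84 and 21.3), Sycp1 (1.33, 2.49 and 1.55) and Tex101 (0.368, 0.718 and 1.22) had log2 changes of 0.03, 0.06 and 0.05, which turned to −0.13, −0.11 and −0.11 with library totals. None of the genes past an adjusted p of 0.05 turned direction under any alternative run. Among the genes not tested, Sycp2 had 129 to 220 counts, Asz1 61 to 107, Brdt 111 to 272, Mei1 76 to 103, Msh4 32 to 108, Tdrd9 39 to 101, Tdrd6 22 to 36 and Spo11 3 to 29, at about 4 times the depth of ESCs. TET TKO replicate 3 was the highest of its group for 22 of the 39 genes. Dnmt3b, a de novo methyltransferase, spread over the 3 TET TKO libraries, with 92.0, 140.0 and 38.7 RPKM, and its ESC levels are given below. A link between Dnmt3b and the levels of the germline genes was not tested.

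Across the wider germline, 49 further genes were read in the same fits. In NPs 34 were tested, 12 of which passed the filter only through ESCs, so that the filter itself favoured a fall. Of the 34, 17 were called lower and 1 higher, against 9.98% and 12.4% of all genes tested. Largest among the falls were those of Gtsf1, a partner of PIWI proteins with 2.06, 2.37 and 2.63 RPKM in ESCs and no count in any NP library (at least 75.1-fold lower, against a floor of 3 counts over the group), of Prdm14 (log2 −8.81), a regulator of primordial germ cells that is also part of the pluripotency network, and of Tdrd12 (−6.75), a Tudor protein. Tdrd7, also a Tudor protein, was the gene called higher, with 0.522, 0.544 and 0.760 in ESCs and 2.91, 2.80 and 2.62 in NPs (log2 change 2.18, SE 0.24, adjusted p = 8.65e-05). In TET TKO ESCs 1 of 35 tested was called lower and none higher, against 1.21% and 1.1% of all genes tested. It was Sohlh2, a transcription factor of early germ cells, which fell from 33.2, 35.0 and 42.7 to 6.08, 3.72 and 7.85 (log2 change −2.66, SE 0.27, adjusted p = 0.000542). Its call did not hold without ESC replicate 1, 2 or 3 or TET TKO replicate 1, nor in a fit of all 3 groups. Dppa3, a germ cell and pluripotency factor, had 59.2, 77.9 and 129.5 against 6.32, 5.44 and 12.9 (log2 change 3.41, SE 0.42, adjusted p = 0.00113), short of the limit on p, and is named because its difference was the largest in the list, after its values were seen.

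Of 19 genes that silence germline promoters, 14 of PRC1.6 and histone methylation and 5 of DNA methylation, 2 were called higher and 3 lower in NPs, shares near the 12.4% and 9.98% of all genes tested. Yaf2 (log2 2.84) and Ring1 (1.94), subunits of Polycomb complexes, rose. L3mbtl2 (−2.36), a subunit of PRC1.6, fell, as did Dnmt3l, the cofactor of de novo methylation, from 150.2, 164 and 128 to 0.204, 0.565 and 0.130 RPKM (log2 change −8.92, SE 0.40, adjusted p = 9.95e-07), and Dnmt3b, from 59.3, 62.1 and 51.5 to 4.77, 6.62 and 7.10 (log2 change −3.23, SE 0.18, adjusted p = 2.36e-06). E2f6, which binds the E2F site, had 4.94, 4.95 and 4.92 in ESCs and 8.52, 10.9 and 12.4 in NPs (log2 change 1.10, SE 0.16, adjusted p = 0.000414), and Mga had 28.6, 27.2 and 27.4 and 10.2, 9.88 and 10.8 (log2 change −1.43, SE 0.10, adjusted p = 8.96e-06), both under 3-fold and named as the factors behind the motifs searched. Dnmt1, which maintains methylation, had 75.5, 76.0 and 76.7 against 72.5, 64.5 and 64.3. In TET TKO ESCs none of the 19 was called by edgeR or DESeq2, 7 were higher at an adjusted p under 0.05 and none lower, against 22.8% and 12.7% of all genes tested, and 9 had an unadjusted p under 0.05 in edgeR, against 46.5%.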

How the data were processed

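Total RNA of the 9 libraries was made into stranded mRNA libraries and sequenced as single reads. Per the labels and the study's methods, the authors aligned the reads to GRCm38 with STAR 2.6.1b and deposited raw counts per gene of Ensembl 89, made with featureCounts 1.6.2 without regard to strand. From these counts, RPKM was computed with the exon lengths in the files and TMM-scaled library sizes over all 9 libraries. Groups were compared 2 at a time with edgeR 4.0.16 (R 4.3.3, quasi-likelihood F test, no covariate) over genes with at least 1 RPKM in at least 1 library of the fit, with the limits the study used, an adjusted p under 0.001 and a fold of 3. Adjusted p-values (Benjamini-Hochberg) cover all genes tested. DESeq2 1.42.0 was an alternative. The fits were tested on simulated data. Samples were grouped by GEO's labels, and columns of other samples numbered 0. Methylation tables of the 15 other samples hold an inserted fragment and were not used here.

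Named genes were all members, with values in every library for those called or with a group mean of at least 1 RPKM, and the largest calls in each direction of the other lists. Members, lists and motifs were chosen with earlier results of these data known. Promoter windows came from RefSeq, the 1 nearest to the gene start in the files where a gene had several. Libraries with the same replicate number in different groups were not treated as pairs in the main fits. Whether they were paired is not known, and a fit with a replicate block is given below. Calculations used Python 3.11.15, numpy 2.4.6 and pandas 2.3.3.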

Additional observations from a re-analysis of the deposited data

How the results depend on the processing

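For NPs against ESCs, the direction of the 28 members tested was the same under every alternative run, while the number called varied around 15 (1 higher, 14 lower). It was 27 without a filter on low values (2 and 25), 28 without a filter and without NP replicate 2, an alternative chosen after seeing the data (2 and 26), and 26 at an adjusted p under 0.05 alone (3 and 23). DESeq2 and a fit of all 3 groups called 2 higher. Leaving out 1 library in turn gave 6 to 21 called, 1 to 2 higher and 5 to 20 lower. Over all genes, 3408 calls became 5281, 5615 and 9734 under the first 3 of these, and 2464 to 3413 with a library left out. The 18 calls of the further germline genes became 30 (no filter, no NP replicate 2) and 32 (adjusted p under 0.05), and 11 to 25 with a library left out. The 5 calls of silencing genes became 15 at an adjusted p under 0.05, and the 1 call of spermatid and oocyte genes became 2 without a filter. With a threshold of 2 RPKM, 5 members were expressed in NPs in place of 11.

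For TET TKO ESCs against ESCs, the 1 member called (higher) became 4 with DESeq2 and 4 without a filter, all higher, 16 at an adjusted p under 0.05 (10 higher, 6 lower), and 0 to 1 with a library left out. Over all genes, 322 calls became 920 with DESeq2, 1263 without a filter, 4953 at an adjusted p under 0.05 and 50 to 329 with a library left out, fewest without ESC replicate 1. The 1 call of the further germline genes became 4, 5, 3 (filterByExpr), 2 (TET TKO counts thinned to the depth of ESCs) and 17 (adjusted p under 0.05), and 0 to 1 with a library left out, and 7 silencing genes passed an adjusted p of 0.05. Log2 changes near 0 turned sign. Stag3 was at −0.13 with library totals, −0.025 with DESeq2, −0.053 thinned and −0.34 to 0.25 with a library left out. Sycp1 was at −0.11 with library totals, −0.12 thinned and −0.25 to 0.23 with a library left out. Tex101 was at −0.11 with library totals, −0.012 with DESeq2, −0.14 thinned and −0.46 to 0.46 with a library left out. Mov10l1 was at −0.23 to 0.15 with a library left out. The cause of these shifts was not tested. Where a library was left out, a group held 2 libraries and fewer degrees of freedom.

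Replicate numbers shared by the groups were tested as pairs. Deviations of same-numbered libraries from their group means correlated at −0.07, −0.01 and −0.17 between ESCs and NPs and at −0.12, 0.42 and 0.26 between ESCs and TET TKO ESCs, and not every library correlated best with its own number. With a replicate block, 18 members were called in NPs (1 higher, 17 lower) and 3 in TET TKO ESCs, all higher, with 674 calls over all genes and 3 of the further germline genes, and Stag3 and Tex101 were at −0.040 and −0.038.

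Depth limits statements on genes with few reads: 12, 4 and 12 of the 39 genes had 3 counts or fewer in NP replicates 1, 2 and 3, where ratios are uncertain and absence cannot be shown. The intervals implied by counts cover counting error only.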
